A study of Mus musculus with 4 samples.

Results

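The genes described here make cholesterol, carry it or control its supply, from the first condensation of acetyl-CoA units to sterol export. They were chosen by name, 29 in all, with earlier results of these data known. Of these, 26 had at least 1 probe set annotated to them alone, among 12393 genes with such a probe set on the arrays. These 26 genes had 53 probe sets. Acat2, Insig1 and Mbtps2 are not analysed here.

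The cells were mouse embryonic fibroblasts from E10.0 embryos on a C57BL/6J background, all lacking p53. The 2 groups were Med1+/+ p53-/- and Med1-/- p53-/-, each measured on 2 Affymetrix 3' expression arrays, and embryos of both genotypes came from 1 cross of a Med1+/- p53-/- male with a Med1+/- p53+/- female. Med1 encodes a Mediator subunit through which nuclear hormone receptors contact the transcription machinery. All cells grew in DMEM with fetal calf serum, and how many embryos or cultures stand behind each genotype is not stated. The p-values therefore measure only how far these samples spread, possibly for technical reasons, and precision is limited by having 4 arrays. Differences between embryos or cultures other than Med1 cannot be told apart from genotype.

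Cholesterol is built from acetyl-CoA through mevalonate, which is turned into isoprenoid units, joined to squalene, closed to lanosterol and trimmed to cholesterol. The transcription factor SREBP-2, encoded by Srebf2, switches on most of these enzymes. It sits in the endoplasmic reticulum bound to its escort SCAP. When sterols are plentiful INSIG proteins hold SCAP there, and when sterols are scarce SCAP carries SREBP to the Golgi, where the proteases encoded by Mbtps1 and Mbtps2 release its active part. Surplus sterol acts in the other direction through the nuclear receptors LXR, which raise the exporters Abca1 and Abcg1 and the SREBP-1 gene Srebf1.

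The labels were borne out by Med1 itself, with deposited signals of 664.6 and 885.6 in Med1+/+ against 25.4 and 40.2 in Med1-/- cells. The deposited signals were not on a common scale. Array medians were 76.25 and 106.65 for Med1+/+ against 36.1 and 51.4 for Med1-/-. Changes below were therefore computed after quantile normalization, on log2(intensity + 1.7), so that each is read against the remaining genes. The genotypes differed widely, with 75.3% of 8923 features (genes, or probe sets without a single gene name) called at an adjusted p under 0.05 in limma. The 3' to 5' signal ratio of Gapdh was 0.947 and 0.90 in Med1+/+ against 1.11 and 1.005 in Med1-/- cells. That of beta-actin was 1.52 and 1.38 against 1.28 and 1.22. Of 13 fibroblast and mesenchyme markers 12 passed the filter on dim probe sets, 5 higher and 4 lower in Med1-/- cells, and Lum did not. The 4 falls were Pdgfra (log2 change -2.95), Prrx1 (-2.89), S100a4 (-2.68) and Dcn (-1.99), and the largest rises Col1a1 (1.98) and Thy1 (1.34). As deposited 1 marker was called higher and 4 lower. The summed normalized intensity of the 13 markers, on which bright genes weigh most, was 54610 and 50540 against 59020 and 55550. All 6 endothelial markers except Kdr and all 7 macrophage and blood markers except Csf1r were below the filter.

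Genes of cholesterol synthesis were mostly lower in Med1-/- cells, and 3 of 5 genes of SREBP control were higher, although the direction for Srebf1 and Srebf2 turned with another scaling of the arrays. Of 25 genes tested, 21 were called, with 17 lower and 4 higher (limma, p-values adjusted over all features by the Benjamini-Hochberg method). Over all features 36.2% were called lower and 39.1% higher, against 68% and 16% of these genes. As the genes were chosen with earlier results of these data known, the shares are a description and not an independent comparison. Without normalization, in the values as deposited, 18 of the genes were lower and 1 higher, and 3844 features were lower and 265 higher. At least a 2-fold fall was called for 12 of the 25, against 19.2% of all features. The median log2 change of the 25 genes was -0.94, and that of all features 0.09. Both values of 1 genotype lay beyond both of the other for 23 of the 25 genes, but the same held for 88.2% of all features, so that this count says little about them. Abcg1 was the gene left out by the filter.

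**Figure D1:**
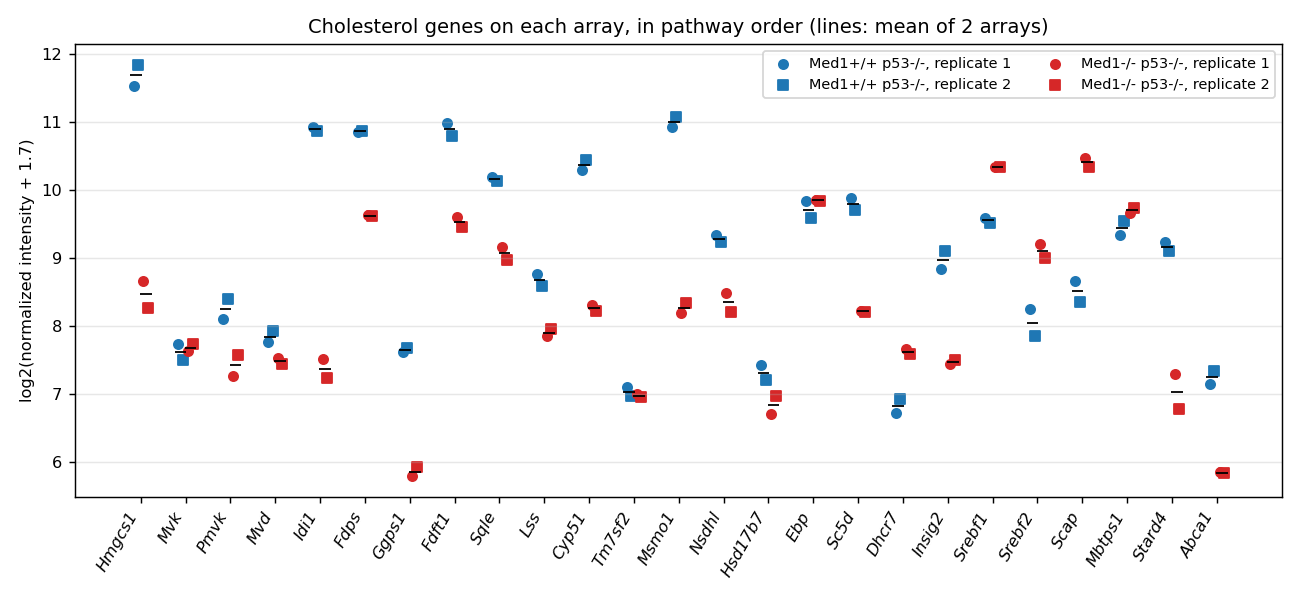
Normalized signal, as log2(intensity + 1.7), of the 25 tested cholesterol genes on each of the 4 arrays, in pathway order; blue points are Med1+/+, red points Med1-/-, and lines the mean of 2 arrays. From Hmgcs1 to Dhcr7 most blue points lie above the red ones, whereas Srebf1, Srebf2 and Scap show the opposite order, which for Srebf1 and Srebf2 turns when scaled on Bacillus subtilis controls.

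The falls ran through every stage of synthesis. Of 18 synthesis enzymes, counting Ggps1 of the geranylgeranyl branch, 14 were lower, 1 was higher and 3 were not called. This stands beside 36.2% of all features lower and 39.1% higher. The median log2 change of the 18 was -1.01. By stage, 3 of 4 genes of the mevalonate steps, 3 of 3 of the isoprenoid steps, 3 of 3 of the squalene and lanosterol steps and 5 of 8 of the steps from lanosterol to cholesterol were lower. Among the lower enzymes, Hmgcs1, Idi1 and Ggps1 lie on chromosome 13, where 68.1% of 288 tested genes were lower. Most epithelial markers above the filter were lower too. Of 10 listed, 6 passed the filter, and Cdh1 (log2 change -4.50), Krt18, Dsg2, Dsp and Krt8 were lower whereas Krt19 (1.61) was higher. Their summed normalized intensity was 5049 and 5203 in Med1+/+ against 2330 and 2713 in Med1-/- cells. The other 4, Epcam, Cldn6, Cldn7 and Esrp1, were below the filter. In bulk RNA fewer cells of a type and less RNA per cell cannot be told apart, and the part of these markers in the sterol changes was not tested.

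**Figure D2:**
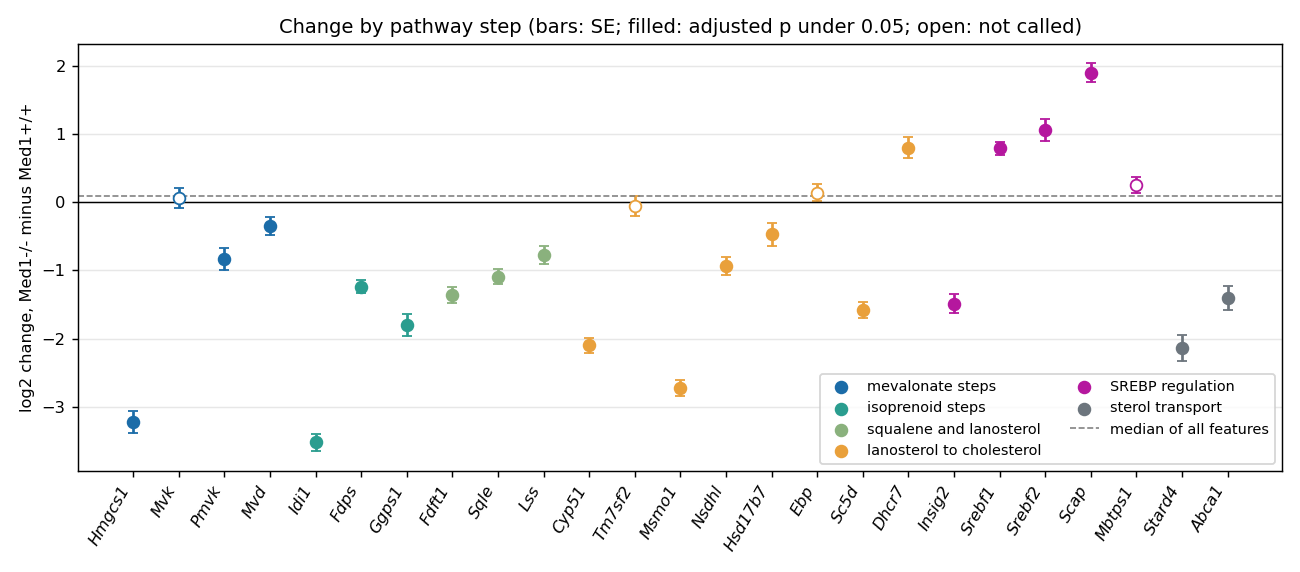
Log2 change of each tested gene, Med1-/- minus Med1+/+, with its SE, in pathway order and coloured by stage; filled points passed an adjusted p of 0.05 and the dashed line is the median of all features, 0.09. The largest falls are those of Idi1, Hmgcs1 and Msmo1, and 4 genes lie above the line with filled points, of which Dhcr7, Srebf1 and Srebf2 turn negative when scaled on Bacillus subtilis controls and Scap does not.

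Hmgcs1, the cytosolic synthase that makes HMG-CoA, had deposited signals of 2946 and 4968 in Med1+/+ against 233.0 and 255.9 in Med1-/- cells. The genotypes did not overlap, and its log2 change was -3.22 (SE 0.17, n = 2 per genotype; adjusted p = 3.15e-05, limma), a 9.35-fold fall. Its brightest probe set is of a kind that can match other transcripts, but the other 3 ran the same way, from -3.43 to -2.39. The enzymes that follow it in the mevalonate steps changed far less. Mvk, mevalonate kinase, had 233.2 and 279.2 in Med1+/+ against 108.7 and 167.7 in Med1-/- cells, which after normalization was a log2 change of 0.06 and not called. Pmvk, phosphomevalonate kinase, fell by 0.83 on the log2 scale (SE 0.17; adjusted p = 0.00333, limma), from 298.7 and 508.3 to 83.1 and 149.2. Mvd, the decarboxylase that ends these steps, had 236.6 and 371.0 in Med1+/+ against 100.2 and 135.6 in Med1-/- cells. Its log2 change of -0.36 was close to the threshold (adjusted p = 0.0445, limma) and was no longer called without any 1 of the 4 arrays.

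The isoprenoid steps held the largest fall of the pathway. Idi1, the isomerase that balances the isoprenoid building blocks, had deposited signals of 1954 and 2647 in Med1+/+ against 99.6 and 116.1 in Med1-/- cells. It fell 11.5-fold (log2 change -3.52, SE 0.13, n = 2 per genotype; adjusted p = 3.15e-05, limma), and its other probe set changed by -3.14. Ggps1, which makes the geranylgeranyl chains attached to small GTPases, had 215.5 and 313.7 against 28.5 and 44.9. Its log2 change was -1.80 (SE 0.16; adjusted p = 0.000100, limma), and its 4 probe sets ran from -1.80 to -1.22. Fdps, the farnesyl diphosphate synthase that feeds both sterols and prenyl groups, had 1865 and 2652 against 468.2 and 678.5. Its normalized values differed little within a genotype and its log2 change was -1.24 (SE 0.10; adjusted p = 6.27e-05, limma).

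All 3 enzymes that join and close squalene were lower, beside 36.2% of all features. Fdft1, squalene synthase, went from 2028 and 2518 to 456.8 and 605.6, a log2 change of -1.36 (adjusted p = 8.80e-05, limma). That probe set is of a kind that can match other transcripts, but the other Fdft1 probe set above the filter changed by -1.30. Sqle, the squalene epoxidase that commits squalene to sterols, went from 1202 and 1638 to 339.8 and 420.4, a log2 change of -1.09 (adjusted p = 0.000182, limma). Lss, which closes the ring to lanosterol, had 2 probe sets above the filter that agreed in direction but not in size. The brighter changed by -0.77 (adjusted p = 0.00129, limma), from 466.8 and 573.3 to 128.2 and 199.2. The dimmer one, with 284.5 and 403.2 against 21.8 and 49.0, changed by -2.33.

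From lanosterol to cholesterol the genes split. Msmo1, the methylsterol oxidase, had 1952 and 3062 in Med1+/+ against 166.9 and 270.3 in Med1-/- cells, a 6.63-fold fall (log2 change -2.73, SE 0.11, n = 2 per genotype; adjusted p = 3.15e-05, limma). Cyp51, the lanosterol demethylase, had 1282 and 2025 against 180.6 and 247.0, a 4.29-fold fall (log2 change -2.10, SE 0.11; adjusted p = 3.15e-05, limma), and its 3 probe sets ran from -2.32 to -1.94. Sc5d, the sterol desaturase, had 985.3 and 1238 against 168.9 and 243.7 (log2 change -1.58; adjusted p = 5.35e-05, limma). For these 3 genes every Med1+/+ value lay above every Med1-/- value by more than the spread within a genotype. The genotypes did not overlap for 88.2% of all features either, so that the lack of overlap does not set these 3 genes apart. Nsdhl, which works with Msmo1 in removing methyl groups, fell less, from 675.4 and 896.5 to 205.6 and 244.3 (log2 change -0.94; adjusted p = 0.000641, limma). Hsd17b7, the reductase of the same complex, had 187.8 and 227.8 against 55.1 and 96.4 (log2 change -0.47; adjusted p = 0.0383, limma). Its call was lost without either Med1+/+ array or without Med1-/- replicate 1, and its other probe set changed by -1.34.

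The remaining late enzymes did not fall relative to the other genes. Tm7sf2, a sterol reductase, had 152.0 and 192.7 in Med1+/+ against 68.1 and 94.5 in Med1-/- cells, a normalized log2 change of -0.06. Ebp, the sterol isomerase, had 947.4 and 1135 against 551.8 and 799.3, a log2 change of 0.14. Neither was called. Dhcr7, the reductase that takes the last step from dehydrocholesterol, had deposited signals of 116.1 and 187.5 against 110.7 and 150.0, which overlap. After normalization its values were 6.72 and 6.92 against 7.66 and 7.58 on the log2 scale, so that it rose by 0.80 (SE 0.15; adjusted p = 0.00238, limma). It was the 1 synthesis enzyme called higher, and in the values as deposited its log2 change was -0.19. Dhcr7 lies on chromosome 7, where 56.8% of tested genes were higher and the median log2 change was 0.71.

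The promoters of 4 of the 5 genes with the largest falls, and of the 2 genes with the largest rises, are shown because SREBP-driven promoters are known to combine an SREBP site with CCAAT and GC boxes. Each is the 250 bases before the RefSeq start site (assembly GRCm38.p6), read 5' to 3' on the gene's strand: chr13:119690101-119690350 on the plus strand for Hmgcs1, chr13:8885356-8885605 plus for Idi1, chr8:64733579-64733828 minus for Msmo1, chr5:4104698-4104947 minus for Cyp51, chr9:110333038-110333287 plus for Scap and chr15:82147019-82147268 plus for Srebf2. Capitals mark matches to the SREBP site TCACNCCAC and to CCAAT, on either strand.
Hmgcs1: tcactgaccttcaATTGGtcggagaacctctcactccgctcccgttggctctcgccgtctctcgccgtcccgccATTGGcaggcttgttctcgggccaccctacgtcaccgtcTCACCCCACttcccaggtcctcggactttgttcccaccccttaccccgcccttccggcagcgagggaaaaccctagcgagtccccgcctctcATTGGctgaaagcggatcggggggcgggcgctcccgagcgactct
Idi1: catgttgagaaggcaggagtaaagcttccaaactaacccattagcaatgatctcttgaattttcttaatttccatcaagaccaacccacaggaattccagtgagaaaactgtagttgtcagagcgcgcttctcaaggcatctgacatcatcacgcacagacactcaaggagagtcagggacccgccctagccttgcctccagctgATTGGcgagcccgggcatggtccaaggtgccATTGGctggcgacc
Msmo1: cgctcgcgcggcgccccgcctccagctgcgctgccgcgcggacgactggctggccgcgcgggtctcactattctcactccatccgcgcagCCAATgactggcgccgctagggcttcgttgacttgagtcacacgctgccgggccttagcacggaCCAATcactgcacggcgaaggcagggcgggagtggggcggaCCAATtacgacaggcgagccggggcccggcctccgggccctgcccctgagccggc
Cyp51: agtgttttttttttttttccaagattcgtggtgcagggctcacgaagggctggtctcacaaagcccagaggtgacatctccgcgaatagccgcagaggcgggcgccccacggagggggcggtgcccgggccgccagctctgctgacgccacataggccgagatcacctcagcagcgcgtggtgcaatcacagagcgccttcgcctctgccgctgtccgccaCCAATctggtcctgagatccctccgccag
Scap: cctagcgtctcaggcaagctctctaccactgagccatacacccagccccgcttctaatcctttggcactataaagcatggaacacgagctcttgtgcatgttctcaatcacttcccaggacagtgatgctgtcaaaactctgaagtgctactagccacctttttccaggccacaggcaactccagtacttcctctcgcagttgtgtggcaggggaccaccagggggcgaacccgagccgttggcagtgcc
Srebf2: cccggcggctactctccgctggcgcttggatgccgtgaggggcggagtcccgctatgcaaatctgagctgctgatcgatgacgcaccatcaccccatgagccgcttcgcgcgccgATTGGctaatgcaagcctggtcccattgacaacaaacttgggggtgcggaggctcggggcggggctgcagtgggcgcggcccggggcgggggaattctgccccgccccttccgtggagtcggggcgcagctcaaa

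The string TCACNCCAC, the only form of SREBP site searched, was found in Hmgcs1 alone among the 21 analysed genes with a promoter window. There it stood at -137 to -129 relative to the start site. Other forms were not searched, so that a promoter without this string is not shown to lack an SREBP site. The string was present in 1.26% of the promoters of 6440 tested genes. CCAAT stood in 18 of the 21 genes (85.7%), against 41.1% of tested genes, and GGGCGG, searched on both strands and not marked above, in 19 of the 21 (90.5%), against 67.8%. Hmgcs1 had CCAAT 3 times, Msmo1 3 times, Idi1 2 times and Cyp51 and Srebf2 once each. Scap, Mbtps1 and Abca1 were the 3 genes with no CCAAT in this window, and they were called higher, not called and called lower, in that order. The genes with CCAAT included Mvk, Tm7sf2 and Ebp, which were not called. They also included Dhcr7, Srebf1 and Srebf2, which were called higher. These matches describe letters and are not measured binding, and genes with several start sites had several windows searched.

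Of 5 tested regulators 3 were called higher (Scap, Srebf2 and Srebf1), Insig2 was lower and Mbtps1 was not called. Among all features 39.1% were called higher and 36.2% lower, and the count over 5 genes is a description. Scap, the escort of SREBP, had deposited signals of 434.6 and 492.3 in Med1+/+ against 873.6 and 1170 in Med1-/- cells. It rose 3.72-fold after normalization (log2 change 1.89, SE 0.14, n = 2 per genotype; adjusted p = 5.24e-05, limma), and it was the 1 gene of the set whose deposited signals were also called higher. Srebf2, the SREBP-2 gene, had deposited signals of 326.3 and 350.1 against 348.4 and 431.1, which overlap. Its normalized log2 values were 8.25 and 7.85 against 9.21 and 8.998, a rise of 1.06 (SE 0.17; adjusted p = 0.00106, limma), and its other probe set changed by 0.84. Srebf1, the SREBP-1 gene, had deposited signals of 808.0 and 1086 against 793.4 and 1174, which overlap. Its normalized values were 9.59 and 9.51 against 10.33 and 10.34, a rise of 0.79 (SE 0.10; adjusted p = 0.000390, limma). The rises of both SREBP genes were therefore rises relative to an array-wide scale, with log2 changes of 0.20 for Srebf2 and 0.04 for Srebf1 in the values as deposited.

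Insig2, which retains SCAP in the endoplasmic reticulum, was lower. It had deposited signals of 486.5 and 814.5 in Med1+/+ against 94.0 and 141.7 in Med1-/- cells, a log2 change of -1.49 (SE 0.14; adjusted p = 0.000107, limma). Its other probe sets changed by -1.701 and -0.67. Mbtps1, the site-1 protease, had 677.6 and 1109 against 479.4 and 741.3, a normalized log2 change of 0.25 that was not called.

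Both tested sterol transport genes were lower, beside 36.2% of all features. Stard4, a soluble carrier of sterols between membranes and itself a known SREBP target, had 630.8 and 821.5 in Med1+/+ against 84.2 and 82.9 in Med1-/- cells. It fell 4.41-fold (log2 change -2.14, SE 0.18, n = 2 per genotype; adjusted p = 8.98e-05, limma), and its other probe set changed by -1.02. Abca1, the LXR-induced exporter that loads cholesterol onto apolipoproteins, had 157.0 and 249.4 against 29.6 and 42.2 (log2 change -1.40, SE 0.17; adjusted p = 0.000370, limma). Abcg1, the exporter to lipoprotein particles, was dim, at 1.1 and 17.2 in Med1+/+ against 5.2 and 19.6 in Med1-/- cells, and the groups overlapped.

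**Figure D3:**
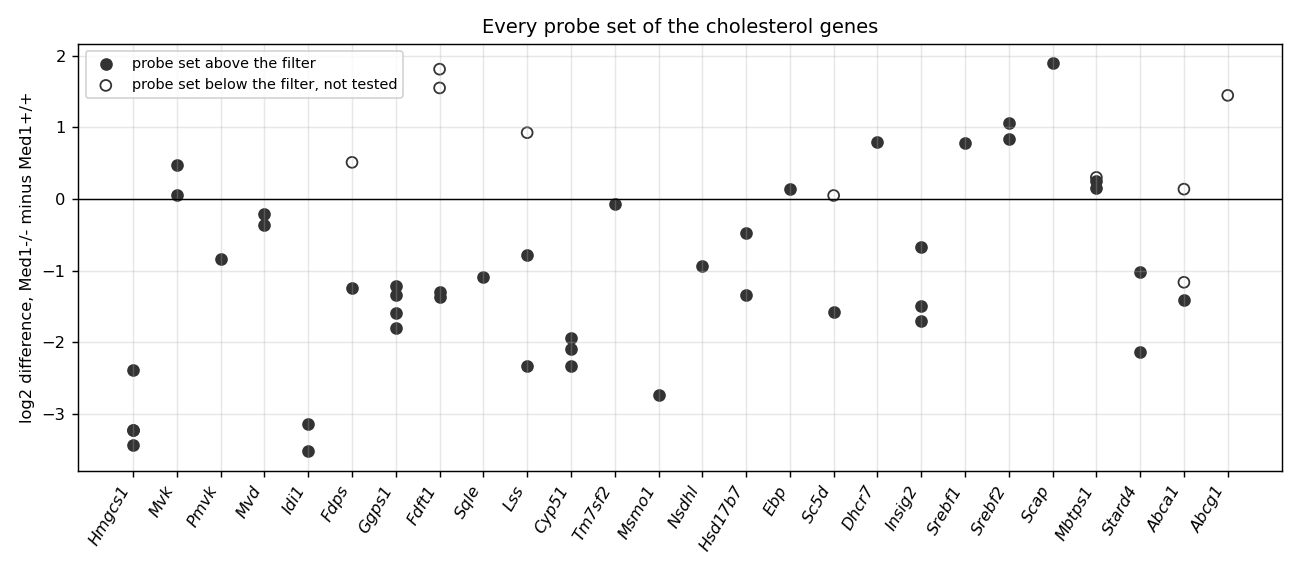
Log2 difference, Med1-/- minus Med1+/+, of all 53 probe sets of the 26 genes, 1 column of points per gene; filled points are the 44 probe sets above the filter, open points those below it. Filled points of 1 gene lie on the same side of 0 throughout, while the open points of Fdps, Fdft1, Lss and Sc5d and 1 of the open points of Abca1 lie on the other side from the filled ones.

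Tested on their own, 31 of 44 probe sets of these genes were lower and 5 higher, against 35.3% and 36.3% of all 13576 probe sets (limma, adjusted over probe sets). No called probe set ran against the brightest one of its gene. The sizes did differ within a gene, as for Lss, Hsd17b7 and Stard4 above.

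The direction of Srebf1, Srebf2 and Dhcr7 turned with the scaling of the arrays, whereas Scap stayed positive under the 6 scalings tried. The scalings on control transcripts were added after the data were seen. Under each of 6 scalings the 17 genes called lower had negative changes, and 15 of them were called under all 6. Mvd and Hsd17b7 were not called with array medians set equal. Of the 4 rises, that of Scap was called with all scalings except that on Bacillus subtilis control transcripts, where its log2 change was 0.21. Srebf1, Srebf2 and Dhcr7 had changes of -0.87, -0.71 and -1.09 under that scaling. The control transcripts had a geometric mean signal of 100.6 and 142.8 on the Med1+/+ and 177.8 and 286.6 on the Med1-/- arrays. The hybridisation controls had 1193 and 1602 against 1170 and 1616. Over all features the log2 change had a median of 0.09 after quantile normalization, -0.76 as deposited, -0.75 on hybridisation controls and -1.66 on Bacillus subtilis controls, so that Srebf1 and Srebf2 lay above it in each of these.

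**Figure D4:**
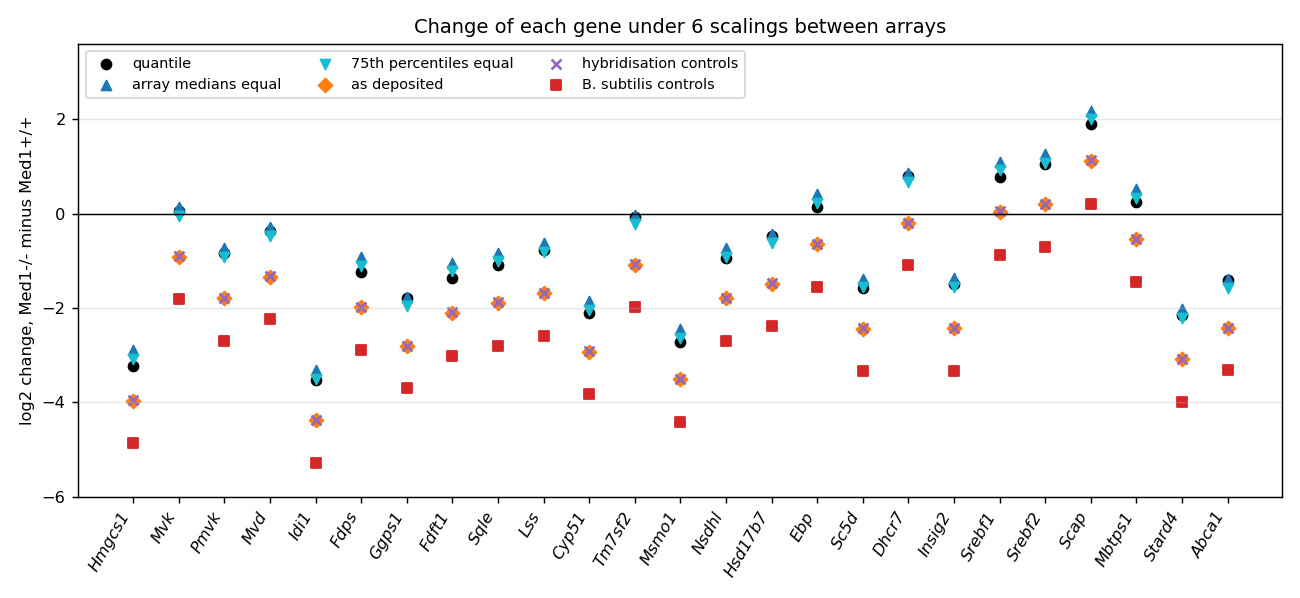
Log2 change of the 25 tested genes, Med1-/- minus Med1+/+, under 6 ways of scaling the arrays; each symbol is 1 scaling. Hmgcs1, Idi1, Msmo1 and Cyp51 stay below -1.8 under all 6, while the points of Srebf1 run from -0.87 to 1.11 and those of Srebf2 from -0.71 to 1.26.

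Idi1, Hmgcs1 and Ggps1 all lie on chromosome 13, where expression was low as a whole in Med1-/- cells. The 288 tested genes of that chromosome had a median log2 change of -0.94 and 68.1% of them were lower. Outside chromosome 13, 14 of 22 cholesterol genes were lower and 4 higher, with a median of -0.80. With each array centred on the median of each chromosome, likewise an added alternative, the changes of Idi1, Hmgcs1 and Ggps1 were -2.56, -2.26 and -0.83 and were still called. In that setting 15 genes of the set were lower and 4 higher. Pmvk, Nsdhl, Hsd17b7 and Dhcr7 lost their calls, and Tm7sf2 (-0.46) was called lower and Ebp (0.76) higher.

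**Figure D5:**
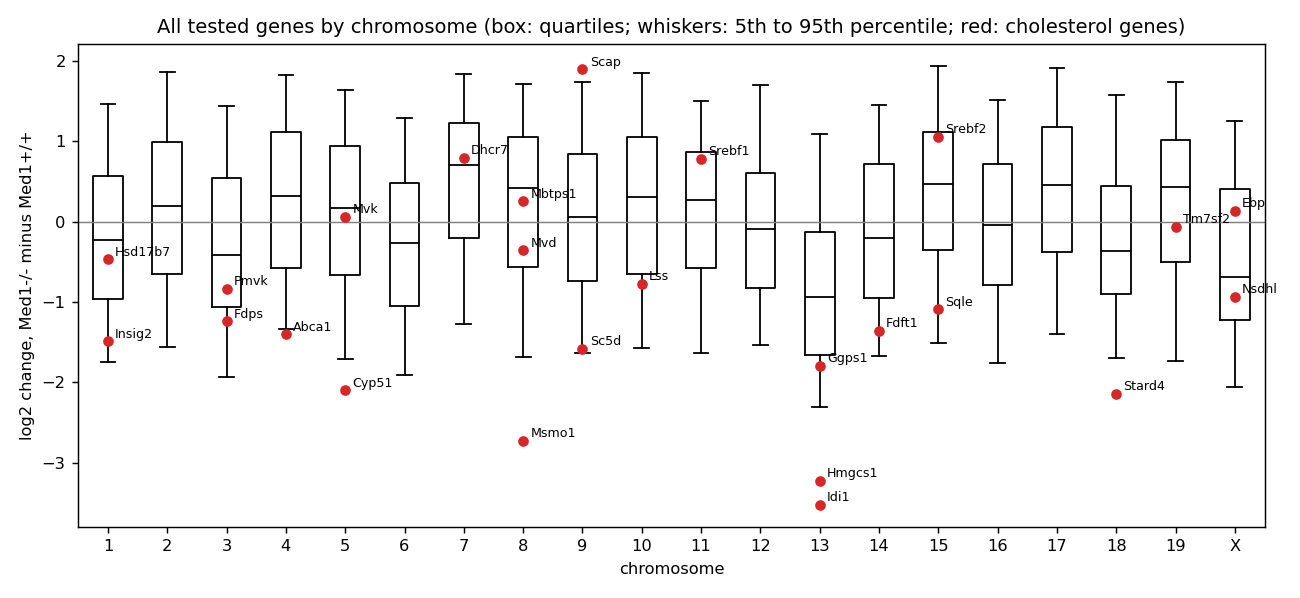
Log2 change of all tested genes by chromosome, with boxes at the quartiles and whiskers at the 5th and 95th percentiles; red points are the cholesterol genes. Chromosome 13 has the lowest median, -0.94, and Idi1 and Hmgcs1 lie below its lower whisker.

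The counts for genes that use or handle the products of the pathway are a description, to be read beside the 39.1% of all features called higher and 36.2% called lower. Of 13 genes that use isoprenoids, 8 were tested, with 5 higher and 3 lower and a median log2 change of 0.95. In the values as deposited 0 were called higher and 3 lower. For each list with a count of 0 rises as deposited here and below, limma also gave 0 at an unadjusted p under 0.05. The largest changes were rises of Rce1 (log2 change 1.75), the protease that trims prenylated proteins, Icmt (1.499), which methylates them, and Rabggta (1.45), a subunit of the enzyme that prenylates Rab proteins. As deposited these were 0.87, 0.62 and 0.48. Rabggtb, the other subunit of the Rab enzyme, was lower (-1.12 after normalization). Fntb (1.38) and Fnta (-1.03), which encode subunits of farnesyltransferase, also went opposite ways. Of 17 genes of sterol transport and esterification, 12 were tested, with 3 higher and 6 lower and a median of -0.27, against 0 higher and 6 lower as deposited. Osbpl9, an oxysterol-binding protein homologue, changed by -1.33, Lipa, the lysosomal acid lipase, by -1.001, and Scarb1, the HDL receptor, by 1.25 (0.39 as deposited). The probe set read for Scarb1 is of a kind that can match other transcripts.

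Of 6 genes of the LXR axis 4 were tested, with 3 higher and 1 lower and a median of 0.43, and Nr1h3 was below the filter. The 3 rises became 0 as deposited, 1 on hybridisation controls (with 3 lower), and 1 without Med1+/+ replicate 2 or at an adjusted p under 0.01. The LXR partner Rxrb changed by 1.44 and Rxra by 0.51, which were 0.59 and -0.49 as deposited, and Mylip, a sterol-induced ubiquitin ligase for lipoprotein receptors, by -1.14. Of 10 genes of sterol-regulated degradation in the endoplasmic reticulum, 6 were tested, with 2 higher and 3 lower and a median of -0.30, against 0 higher and 3 lower as deposited. The ubiquitin ligase gene Syvn1 (1.23) and Aup1 (1.01) were higher, at 0.33 and 0.20 as deposited, and Erlin1 (-1.16) was lower. Of 6 lipoprotein receptor and adaptor genes 5 were tested, and Vldlr was the 1 that was called, with a log2 change of -1.22. Its brightest probe set is of a kind that can match other transcripts. With array medians equal 2 of the 5 were higher and 1 lower, and with probe sets averaged 2 higher and 2 lower. On hybridisation controls 4 were lower, and on Bacillus subtilis controls 5. As deposited 2 of the 5 were lower, and 2 were lower without Med1+/+ replicate 2. Without Med1-/- replicate 2, 1 was higher and 1 lower.

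Of 11 tested fatty acid genes driven mainly by SREBP-1, 3 were higher and 5 lower, beside 39.1% and 36.2% of all features. No rise was called as deposited (6 lower), on hybridisation controls (9 lower) or on Bacillus subtilis controls (11 lower). The unadjusted p in limma was under 0.05 for 0 rises in these settings as well. The elongase gene Elovl6 (log2 change -1.96), the desaturase gene Scd1 (-1.44) and Acly (-1.42), which makes cytosolic acetyl-CoA, fell. The probe set read for Acly is of a kind that can match other transcripts. The 3 rises were Fasn (0.74), Fads2 (0.61) and Me1 (0.45). The median of the 11 genes, -0.35, compares with -1.01 for the 18 synthesis enzymes, Ggps1 included, and 0.09 for all features. The difference between these lists was not tested.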

How the data were processed

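Per the labels' protocols, an Affymetrix 3' in vitro transcription kit put biotin on amplified total RNA. The deposited values are linear signal intensities per probe set. The authors' summarisation, background correction and scaling were not given in the sources used here. After the 64 control probe sets were set aside, the other 22626 were quantile normalized and taken as log2(intensity + 1.7), where 1.7 is the table's 10th percentile. Folds of dim genes are understated on this scale. A probe set needed a mean at or above the 40th percentile, and the brightest probe set stood for a gene. Names were those of the array's annotation, brought up to date with RefSeq (GRCm38.p6); 20380 probe sets had 1 symbol, 691 several and 1555 none.

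Genotypes were compared in limma 3.58.1 in R 4.3.3 by two-sided moderated tests (lmFit, then eBayes with trend), and p-values were adjusted by Benjamini-Hochberg over 8923 features. The script was tested on simulated data. The genes and lists were chosen with earlier results of these data known. All 29 genes were to be named, and up to 3 called genes per other list, those with the largest change and no overlap between genotypes. Some further genes of these lists were named after the data were seen, to show changes in the other direction. Alternatives varied scaling, pseudocount, filter, probe set, variance model, threshold, a replicate block and the arrays left out; scaling on control transcripts and centring within chromosomes were added after the data were seen. Figures used matplotlib 3.10.9.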

Additional observations from a re-analysis of the deposited data

How the results depend on the processing

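Of the genes called, 17 were lower with 75th percentiles equal, 18 in the values as deposited, 21 on hybridisation controls and 24 on Bacillus subtilis controls, and each of these included the same 17 genes. Mvd and Hsd17b7 lost their calls with no filter on dim probe sets and with array medians equal. The 4 rises became 1 in the values as deposited, 1 on hybridisation controls and, in limma, 0 on Bacillus subtilis controls (0 also at an unadjusted p under 0.05). With a 2-fold minimum, 2 remained of the rises, and 1890 features were higher and 1715 lower. Features called higher were 265 as deposited, 1253 on hybridisation and 100 on Bacillus subtilis controls, and those called lower were 5296 and 7846 on the 2 kinds of control. The median of the set was -1.79 as deposited, -1.78 and -2.70 on the same controls, -0.74 with array medians equal, -1.09 with probe sets averaged and -0.83 with chromosomes centred. It was -1.27 over 44 probe sets, of which 31 were lower. The median of all features was -0.76 as deposited and -0.75 and -1.66 on the controls.

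Signs turned as follows. As deposited, Dhcr7 was at -0.19, Ebp at -0.64, Mbtps1 at -0.54 and Mvk at -0.91. On hybridisation controls the same genes were at -0.19, -0.63, -0.53 and -0.90, and on Bacillus subtilis controls at -1.09, -1.55, -1.45 and -1.81, with Srebf1 at -0.87 and Srebf2 at -0.71. Mvk was at -0.039 with 75th percentiles equal and at -0.13 with chromosomes centred, where Mbtps1 was at -0.15. Leaving out 1 array at a time, Mvk ran from -0.059 to 0.18 and Tm7sf2 from -0.14 to 0.011. Leaving out 1 array at a time gave 15 to 16 falls, 4 rises, a median of -1.06 to -0.97, and 3077 to 3341 features higher and 2710 to 3171 lower. With the replicate number as a block, 17 genes were lower and 5 higher, Mbtps1 being the added one, and 3825 features were higher and 3500 lower. Arrays of the same number deviated together across features (correlation 0.27), but with 2 pairs this does not show a pairing. Genes near the background, such as Abcg1, have no usable change.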

Other observations

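Within chromosome 13, Idi1 ranked 3 from the lowest change among 288 tested genes, Hmgcs1 7 and Ggps1 59. The median log2 changes of the other chromosomes that hold genes of the set ran from -0.69 on the X chromosome, which holds Nsdhl and Ebp, to 0.71 on chromosome 7, which holds Dhcr7. On chromosome 8 the median was 0.41, whereas Msmo1, which lies there, changed by -2.73.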
